A study of Mus musculus with 48 samples.

Results

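The 9 genes described here belong to the dividing compartment of the intestinal crypt and were chosen by name, with earlier results of these data known. Lgr5, Olfm4, Ascl2, Smoc2 and Axin2 are stem cell or Wnt target genes, and Mki67, Top2a, Cdk1 and Ccnb1 are proliferation genes. They are 9 of the 53465 genes counted, and all 9 were among the 15126 genes with enough counts to be tested. Stem cells at the crypt base renew the intestinal epithelium under Wnt and R-spondin signals, and their daughters divide before they leave the cell cycle and differentiate. Enteroendocrine cells (EECs), the hormone-secreting cells of this epithelium, arise from Neurog3-positive progenitors, switch on Neurod1 and have mostly stopped dividing when mature.

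The libraries were made from EYFP-positive epithelial cells sorted by flow cytometry from 17 Neurod1-cre-eYFP mice, lean males on a C57BL6 background aged about 20 weeks at surgery. In these mice a Cre recombinase driven by Neurod1 switches on EYFP permanently, so a sorted cell is one that expressed Neurod1 or descends from one that did. After vertical sleeve gastrectomy (VSG), in which the labels put the part of the stomach removed at about 70%, after sham surgery with free feeding (sham ad libitum) or after sham surgery with food limited to hold body weight at that of the VSG mice (sham weight matched), cells were taken from the top 5 cm of the small intestine (duodenum), its bottom 15 cm (ileum) and the colon with rectum (colon). Each region had 16 libraries, of which 6 came from VSG mice and 5 from each sham group, and 15 of the mice gave all 3 regions. All mice shared the transgenes, chow with a spell of liquid diet around surgery, antibiotics after it, and, 6 weeks after surgery, an overnight fast and a gavage of 3 g/kg glucose about 15 min before tissue collection. The VSG mice also received weekly vitamin B12 injections, and the colon was dissociated in a higher EDTA concentration than the small intestine.

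Total counts ran from 4648651 to 17182463 per library, with a median of 6713018. The markers of the sorted cells were present in all libraries. Neurod1 had mean levels of 660, 412 and 255 CPM (read counts scaled to a common effective library size) in duodenum, ileum and colon. The summed level of 7 EEC markers, among them Chga, Chgb and Syp, had medians of 54870, 42970 and 46580 CPM. One duodenum library, of sham weight matched mouse 27, stood apart: its EEC marker sum of 11500 CPM was the lowest of all, and its enterocyte (42650 CPM), Paneth (4049 CPM) and immune (1859 CPM) marker sums were the highest of the duodenum. For mouse 12 the tissue label and the sample code of the ileum and colon libraries name opposite regions, and the tissue label was used. The first of each library's pair of index sequences followed region: D502 held 12 duodenum libraries and no others, D504 held 11 colon and 1 ileum library, D501 held 4 duodenum, 7 ileum and 1 colon library, and D503 held 8 ileum and 4 colon libraries. Without the ileum and colon libraries of mouse 12 the same 6, 7 and 9 of the 9 genes passed the test between regions as with them (ileum against duodenum, colon against duodenum and colon against ileum), and values that move with the library of mouse 27 or with the index are given beside the results.

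All 9 genes were detected in the sorted cells, at very different levels. Levels per kilobase use the length of all annotated exons of a gene merged, which for Lgr5 is 10264 bases against 4793 in its longest transcript. On this scale Olfm4 was the most abundant in the small intestine. Its mean CPM per kilobase was 303.6 in duodenum and 567.7 in ileum, ranks 74 and 50 among 15108 genes. In colon Olfm4 was at 1.67 CPM per kilobase, rank 10021. The next in order were Axin2, with 21.4, 34.6 and 11.4 CPM per kilobase in duodenum, ileum and colon, and Mki67, with 12.8, 18.4 and 7.18. Lgr5 itself was low, at 1.32, 4.13 and 1.16 CPM per kilobase, and Ccnb1 was the lowest of the 9 at 0.454, 0.687 and 0.176. Of the 48 libraries, all had at least 10 counts of Lgr5, Smoc2, Axin2, Mki67, Top2a and Cdk1, 47 of Ascl2, 42 of Olfm4 and 28 of Ccnb1. Only 2 of the colon libraries reached 10 counts of Ccnb1, and 10 of them reached 10 counts of Olfm4.

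**Figure D1:**
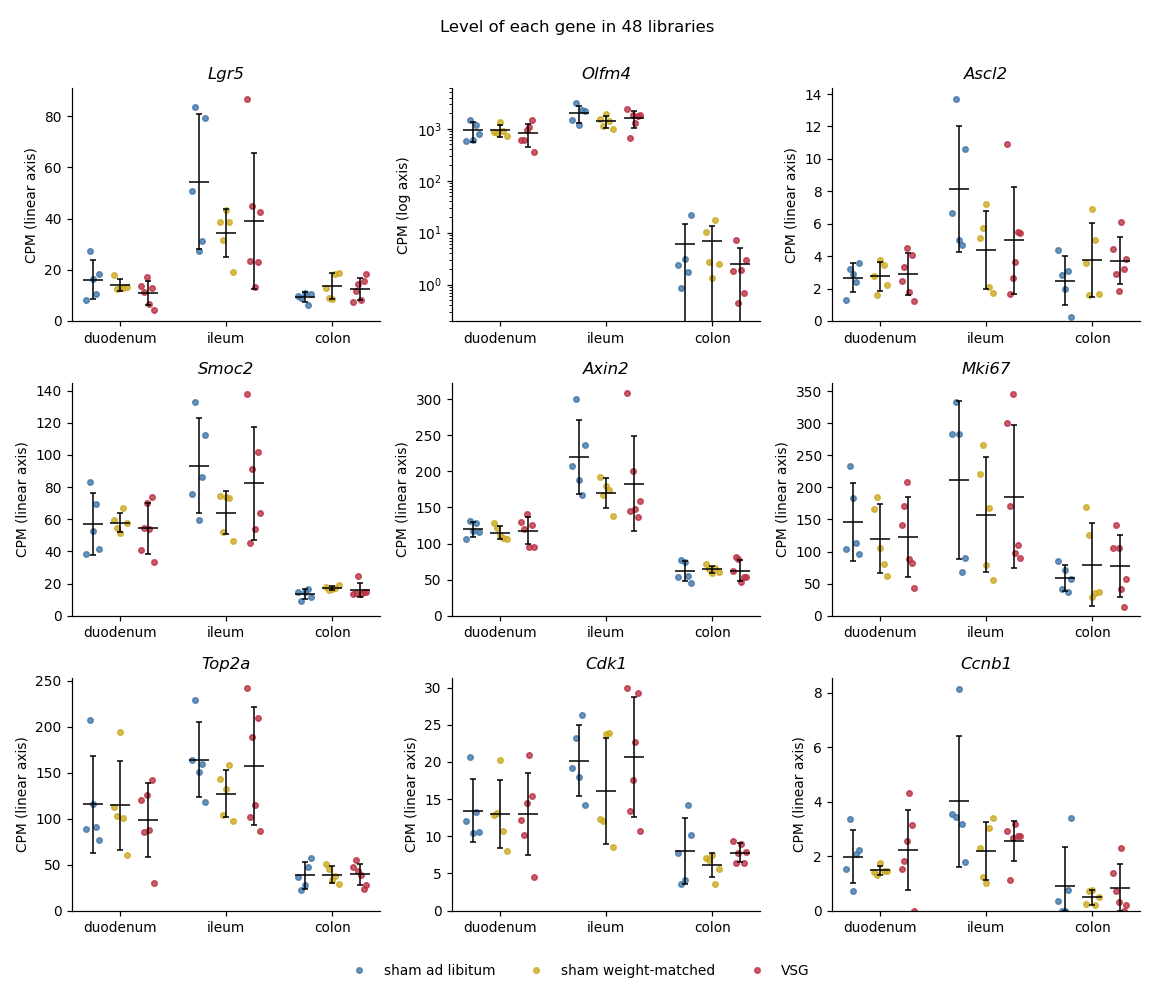
Level of each gene in every library, in CPM on effective library sizes, by region and surgery group; each point is 1 library and black bars give the mean ± SD of a surgery group (lower ends are cut at 0, and the Olfm4 axis is logarithmic). Olfm4, Smoc2 and Axin2 lie lower in all 16 colon libraries than in any duodenum or ileum library, while the surgery groups overlap within each region.

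Lgr5 (chromosome 10, 115450311 to 115587780, minus strand, GRCm38), the R-spondin receptor that marks crypt base stem cells, was highest in ileum. Its lowest, median and highest levels were 4.43, 13.01 and 27.3 CPM in the 16 duodenum libraries, 13.4, 38.7 and 86.7 CPM in ileum, and 6.33, 10.8 and 18.9 CPM in colon. The ileum range overlapped both others, but within mice Lgr5 was higher in ileum than in duodenum in 15 of 15 animals and higher than in colon in 16 of 16. The log2 fold change of ileum over duodenum was 1.63 (SE 0.211, 95% interval 1.2 to 2.05, edgeR adjusted p = 3.34e-08), a 3.09-fold difference, and colon was lower than ileum by 3.58-fold (log2 fold change -1.84, adjusted p = 8.76e-10). Colon and duodenum did not differ beyond their spread (log2 fold change -0.21, interval -0.64 to 0.22, adjusted p = 0.42), with colon the higher in 8 of 15 mice.

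Olfm4 (chromosome 14, 79984081 to 80023139, plus strand), a secreted olfactomedin glycoprotein abundant in stem cells of the mouse small intestine, differed most between regions. It ranged from 366 to 1480 CPM in duodenum (median 843), from 653 to 3131 CPM in ileum (median 1652) and from 0.436 to 21.98 CPM in colon (median 2.48). No colon library reached the level of any small intestinal library, and the colon values rest on 489 counts in all. Colon was 194-fold below duodenum (log2 fold change -7.60, SE 0.412, adjusted p = 1.2e-19) and 357-fold below ileum (-8.48, adjusted p = 2.1e-20), and ileum was 1.85-fold above duodenum (0.88, interval 0.28 to 1.49, adjusted p = 0.0191). A non-coding gene on the same strand, Gm6999, overlaps exons of Olfm4, so reads of these 2 genes may have been divided or left uncounted.

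Ascl2 (chromosome 7, 142966829 to 142969264, minus strand), a basic helix-loop-helix factor through which Wnt signals set stem cell identity, was low everywhere. Its median was 2.86 CPM in duodenum (1.21 to 4.495), 5.28 CPM in ileum (1.66 to 13.7) and 3.14 CPM in colon (0.227 to 6.91), and the ranges overlapped. Ileum was higher than duodenum by 2.02-fold (log2 fold change 1.02, SE 0.269, adjusted p = 0.00249; 11 of 15 mice) and colon was lower than ileum (-0.78, SE 0.27, adjusted p = 0.0139; 13 of 16 mice). Colon and duodenum gave a log2 fold change of 0.24 with an interval of -0.31 to 0.78 (adjusted p = 0.487).

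Smoc2, a matricellular protein gene of the stem cell signature (chromosome 17, 14279506 to 14404790, plus strand), and Axin2, a scaffold protein that Wnt signalling induces and that feeds back to restrain it (chromosome 11, 108920349 to 108950783, plus strand), showed a common order of ileum, duodenum and colon. Smoc2 spanned 33.3 to 83.5 CPM in duodenum (median 54.4), 45.0 to 138 CPM in ileum (median 74.2) and 9.43 to 24.8 CPM in colon (median 14.8). Axin2 spanned 94.97 to 141 CPM in duodenum (median 119), 136 to 309 CPM in ileum (median 177) and 45.1 to 81.1 CPM in colon (median 61.1). For both genes the colon libraries lay wholly below those of the other regions. Ileum exceeded duodenum by 1.40-fold for Smoc2 (log2 fold change 0.48, adjusted p = 0.00375; 10 of 15 mice) and by 1.62-fold for Axin2 (0.69, SE 0.0967, adjusted p = 1.14e-07; 15 of 15 mice). Colon was below duodenum by 3.63-fold for Smoc2 and 1.87-fold for Axin2, and below ileum by 5.08-fold and 3.02-fold. An antisense gene, Gm11670, overlaps an exon of Axin2, and since the use of strand in counting is not stated in the sources used here, the reads of the pair cannot be separated with certainty.

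The 4 proliferation genes act from S phase to mitosis. Mki67 encodes Ki-67, which coats mitotic chromosomes and is made in all cycling cells, Top2a the topoisomerase that untangles replicated DNA, Cdk1 the kinase that drives entry into mitosis and Ccnb1 its partner cyclin B1. Genes of this kind are switched on late in the cell cycle through promoter elements that include the CHR (cell cycle genes homology region) and CCAAT boxes. The 250 bases before each annotated start are shown so that the elements can be read beside the values (RefSeq, GRCm38.p6). They lie at chr7:135716380-135716629 (Mki67), chr11:99024190-99024439 (Top2a), chr10:69352913-69353162 (Cdk1) and chr13:100786487-100786736 (Ccnb1), all on the minus strand. Each is printed 5′ to 3′ on the gene's strand, with CHR (TTTGAA) and CCAAT matches on either strand in capitals:
Mki67: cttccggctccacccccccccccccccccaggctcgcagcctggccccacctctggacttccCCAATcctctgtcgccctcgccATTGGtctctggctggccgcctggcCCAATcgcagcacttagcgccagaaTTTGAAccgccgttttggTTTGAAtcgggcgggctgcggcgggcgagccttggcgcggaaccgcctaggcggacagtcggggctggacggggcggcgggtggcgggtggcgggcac
Top2a: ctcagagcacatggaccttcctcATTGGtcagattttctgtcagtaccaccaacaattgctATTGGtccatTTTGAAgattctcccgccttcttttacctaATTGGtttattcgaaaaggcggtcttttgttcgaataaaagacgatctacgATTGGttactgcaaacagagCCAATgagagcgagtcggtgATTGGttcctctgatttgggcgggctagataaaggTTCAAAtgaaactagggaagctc
Cdk1: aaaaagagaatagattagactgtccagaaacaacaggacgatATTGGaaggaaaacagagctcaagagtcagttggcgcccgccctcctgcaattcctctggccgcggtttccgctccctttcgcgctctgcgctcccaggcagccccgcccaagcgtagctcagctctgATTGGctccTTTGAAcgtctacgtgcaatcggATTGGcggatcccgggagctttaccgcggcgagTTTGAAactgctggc
Ccnb1: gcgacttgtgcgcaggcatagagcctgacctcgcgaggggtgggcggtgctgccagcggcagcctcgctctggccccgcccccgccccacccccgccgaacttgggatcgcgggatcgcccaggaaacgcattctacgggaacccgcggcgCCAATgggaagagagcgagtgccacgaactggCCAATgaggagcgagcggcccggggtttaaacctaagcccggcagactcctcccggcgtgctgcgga

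The windows of Mki67, Top2a and Cdk1 held 2 CHR matches each and those of Ccnb1 held 0, while CCAAT occurred 3, 6, 3 and 2 times. Of 32851 windows of the same length in RefSeq, 16% held a CHR match, 33.8% a CCAAT match, 10.1% at least 2 CCAAT matches, and 5.55% both a CHR and a CCAAT match. Among the stem cell and Wnt genes, the windows of Ascl2 held 3 CCAAT matches, that of Olfm4 1 and that of Axin2 0, and no CHR match was found in any of the 3. CTTTGAT, one spelling of the site of the TCF/LEF factors that carry the Wnt signal, was in 0 of the 7 windows and in 3.21% of all windows. CTTTGAT and TTTGAA share the letters TTTGA and differ in the last, so neither contains the other. TTTGGCGC, TTTCGCGC and TTTCCCGC, spellings of the E2F site, gave 1 match in the 7 windows, that of Cdk1, and 1.53% of all windows held one. The 7 windows matched by symbol were those of all members except Lgr5 and Smoc2.

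Mki67 (chromosome 7, 135689784 to 135716361, minus strand) ranged from 43.5 to 234 CPM in duodenum (median 109), from 55.1 to 346 CPM in ileum (median 169) and from 14.2 to 170 CPM in colon (median 57.5). Top2a (chromosome 11, 98992943 to 99024189, minus strand) ranged from 30.1 to 207 CPM in duodenum (median 102), from 86.6 to 242 CPM in ileum (median 147) and from 22.5 to 57.6 CPM in colon (median 38.6). The regions overlapped for Mki67, while the highest colon level of Top2a was below the lowest ileum level. Colon was below ileum for both genes, by 3.82-fold for Top2a (log2 fold change -1.93, adjusted p = 8.13e-12) and with a log2 fold change of -1.36 for Mki67 (SE 0.31, adjusted p = 0.000295), in 16 of 16 mice each. Colon was also below duodenum, with log2 fold changes of -1.49 for Top2a (adjusted p = 3.69e-09; 15 of 15 mice) and -0.85 for Mki67 (SE 0.307, adjusted p = 0.0169; 13 of 15 mice). Without mouse 13 the Mki67 difference was -0.74 with an adjusted p of 0.0514. Between ileum and duodenum neither gene passed the test, with 0.51 for Mki67 (interval -0.10 to 1.12, adjusted p = 0.202) and 0.44 for Top2a (interval 0.08 to 0.81, adjusted p = 0.0522). With the mouse as a replicate block in edgeR both passed, at 0.53 (adjusted p = 0.0368) and 0.48 (adjusted p = 0.0265). Without the duodenum library of mouse 27, Top2a passed in edgeR (0.535, adjusted p = 0.0152) and Mki67 did not (0.496, adjusted p = 0.225). A small nucleolar RNA gene, Gm23451, overlaps Top2a.

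Cdk1 (chromosome 10, 69335146 to 69352938, minus strand) had median levels of 12.5 CPM in duodenum (4.53 to 20.9), 18.6 CPM in ileum (8.502 to 29.99) and 7.31 CPM in colon (3.54 to 14.2). Ccnb1 (chromosome 13, 100778650 to 100786570, minus strand) had medians of 1.63 CPM (0 to 4.30), 2.83 CPM (0.994 to 8.13) and 0.435 CPM (0 to 3.40), the last from 69 counts in all. Ranges of neighbouring regions overlapped for both. Cdk1 was 1.44-fold higher in ileum than in duodenum (log2 fold change 0.52, SE 0.182, adjusted p = 0.0228; 13 of 15 mice), a call lost without mouse 11 (adjusted p = 0.0542) or mouse 29 (adjusted p = 0.0727). In colon it was 1.83-fold lower than in duodenum (-0.87, adjusted p = 0.000113) and lower than in ileum (-1.39, adjusted p = 2.48e-08). Ccnb1 was lower in colon than in duodenum (-1.43, SE 0.429, adjusted p = 0.00406) and than in ileum (-2.01, SE 0.43, adjusted p = 0.000103), and its ileum to duodenum value was 0.59 (interval -0.20 to 1.37, adjusted p = 0.262). Ccnb1-ps, a near-identical copy, took 8 counts over 48 libraries, and how STAR's counting divided reads shared with it is not stated in the sources used here.

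**Figure D2:**
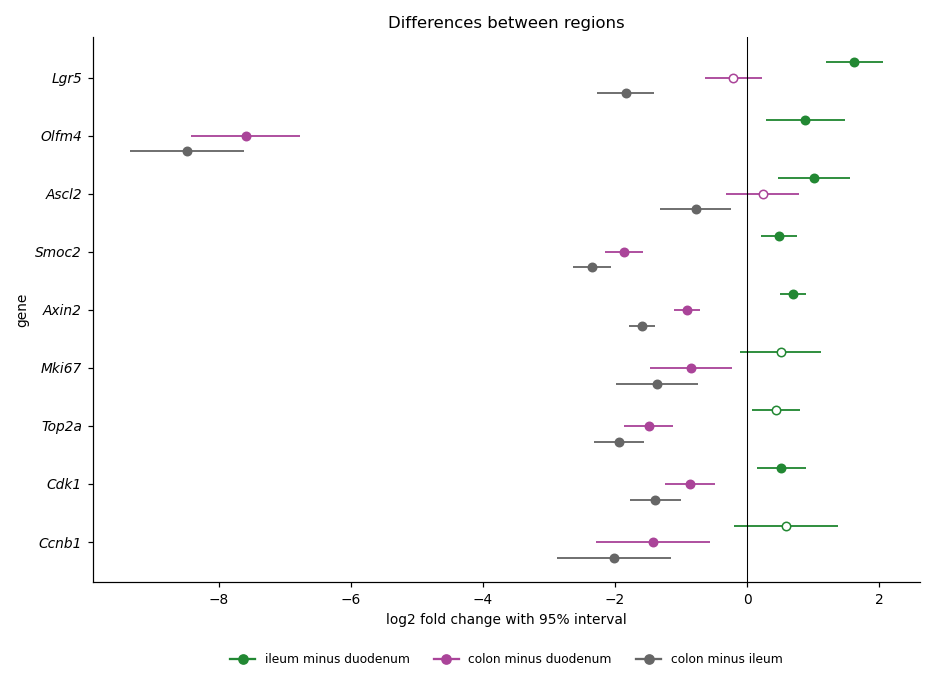
Log2 fold changes between regions with 95% intervals from edgeR, 1 row per gene and 1 colour per pair of regions; filled symbols passed an adjusted p of 0.05. All 9 genes lie below 0 for colon against ileum, and Olfm4 stands farthest out at -8.48.

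Counted together, 6 of the 9 genes were higher in ileum than in duodenum, beside 17.2% of all genes tested that were higher and 33.8% that differed in either direction. The 6 were all 5 stem cell and Wnt genes and Cdk1. In colon, 7 of 9 were lower than in duodenum, where 28.3% of all genes were lower and 55.0% differed, and 9 of 9 were lower than in ileum, where 25.4% were lower and 49.2% differed. The median log2 fold change of the 9 was 0.585 for ileum over duodenum and that of all genes 0.005. Genes whose 16 libraries did not overlap were Olfm4, Smoc2 and Axin2 between colon and duodenum (9.75% of all genes) and these with Top2a between colon and ileum (7.14%), and 0 of 9 between ileum and duodenum (1.46%). In bulk samples such as these, fewer cells of a type and less RNA per cell cannot be told apart.

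Library index and region overlapped only in part, so the values within an index are given where 1 index held several libraries of both regions. For ileum against duodenum, with the first index as a covariate only Lgr5 (log2 fold change 1.31, adjusted p = 0.038) and Axin2 (0.67, adjusted p = 0.0135) remained called, and Top2a, Cdk1 and Ccnb1 turned to -0.13, -0.03 and -0.24, while Mki67 was at 0.71 (adjusted p = 0.54). Within index D501, the only one with several libraries of both, the 7 ileum and 4 duodenum libraries averaged 37.6 and 16.7 CPM for Lgr5, 1546 and 1050 CPM for Olfm4, and 180 and 116 CPM for Axin2. In the same libraries Top2a averaged 133 CPM in ileum and 142 CPM in duodenum, Cdk1 16.9 and 15.9 CPM, and Ccnb1 2.20 and 2.21 CPM, while Mki67 averaged 180 and 135 CPM. The covariate left Olfm4 at 0.441, Ascl2 at 0.752 and Smoc2 at 0.512 (edgeR adjusted p = 0.693, 0.42 and 0.233). Within D501, Ascl2 averaged 4.87 CPM in ileum and 2.95 CPM in duodenum, and Smoc2 73.6 and 53.8 CPM. Region and index overlap in the same way for every gene, so they cannot be fully told apart in this contrast for any of the 9. The covariate also widened the standard errors, from 0.133 to 0.265 for Smoc2 and from 0.097 to 0.187 for Axin2. A lost call alone therefore does not show a smaller difference. Within index D503, the mean of 4 colon libraries was below that of 8 ileum libraries for all 9 genes. The log2 ratios of the means ran from -7.96 (Olfm4) to -1.32 (Ccnb1). Single libraries could overlap: Mki67 was at 105 CPM in the colon of mouse 11 and 55.1 CPM in the ileum of mouse 31. For colon against duodenum no index held 3 or more libraries of both. There the covariate left Mki67 at -0.69 (adjusted p = 0.532) and Ccnb1 at -2.01 (adjusted p = 0.0909), and it left Ascl2 at -0.83 against ileum, no longer called.

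The same directions were seen in wider lists of replication and mitosis genes, and only in part in lists of stem cell and Wnt genes. These lists were written with earlier results of these data known and were read in the same 48 libraries, so they describe and give no independent support. Of all genes tested, 17.2% were higher in ileum than in duodenum, and 28.3% and 25.4% lower in colon than in duodenum and ileum. Of 20 DNA replication genes, 12 were higher and 0 lower in ileum than in duodenum, 17 were lower and 0 higher in colon than in duodenum, and all 20 were lower in colon than in ileum. In ileum the lowest p-values were those of the origin licensing factor Cdt1 (log2 fold change 0.93) and the replicative helicase subunits Mcm2 (0.87) and Mcm3 (0.79). In colon they were those of the loading factor Cdc6 (-2.0 against duodenum), Mcm6 (-0.92) and the ribonucleotide reductase subunit Rrm2 (-1.44). The list's summed level had medians of 354, 547 and 228 CPM in duodenum, ileum and colon.

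Of 20 mitosis genes other than the 9, 8 were higher in ileum than in duodenum, 18 were lower in colon than in duodenum and 20 were lower in colon than in ileum, with 0 in the opposite direction each time. Examples are the kinase Aurkb (0.96 in ileum over duodenum, -2.12 in colon against ileum), the checkpoint kinase Bub1b (0.65 and -1.36) and the midzone protein Prc1 (-1.36 in colon against duodenum). Without the duodenum library of mouse 27, 15 mitosis and 15 replication genes were higher in ileum and 13 replication genes were lower in colon than in duodenum. With the index as a covariate, 0 genes of either list were higher in ileum, while 17 and 20 mitosis genes and 13 and 19 replication genes stayed lower in colon than in duodenum and ileum. The median log2 fold changes of the mitosis list were 0.54, -0.95 and -1.45 for ileum over duodenum, colon over duodenum and colon over ileum, and those of all genes lay between -0.015 and 0.005.

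The stem cell list of 25 genes, which holds the 5 stem cell members, was less uniform. In ileum 17 were higher and 2 lower than in duodenum. The IGF-binding protein gene Igfbp4 (2.09), the receptor gene Tnfrsf19 (2.00) and the crypt transcription factor Sox9 (1.03) were the higher genes of lowest p, and the hyaluronan receptor gene Cd44 (-1.01) and the Polycomb gene Bmi1 (-0.33) the lower ones. Colon against duodenum split into 8 higher and 10 lower: Ephb3 (1.37), a receptor that positions cells along the crypt, Sox9 (1.13) and Cdk6 (0.86) were higher, and Nrn1 (-3.08), the RNA-binding protein gene Msi1 (-2.35) and Cd44 (-1.94) were lower. Against ileum, 2 were higher in colon, Prom1 (0.73) and Ephb3 (0.49), and 17 were lower. The 5 members are among the 17 genes higher in ileum and the 17 lower in colon than in ileum. Of the 10 lower in colon than in duodenum, 3 are members. Among all genes tested, 17.2% were higher and 16.6% lower in ileum than in duodenum. In colon 26.8% were higher and 28.3% lower than in duodenum, and 23.8% higher and 25.4% lower than in ileum.

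**Figure D3:**
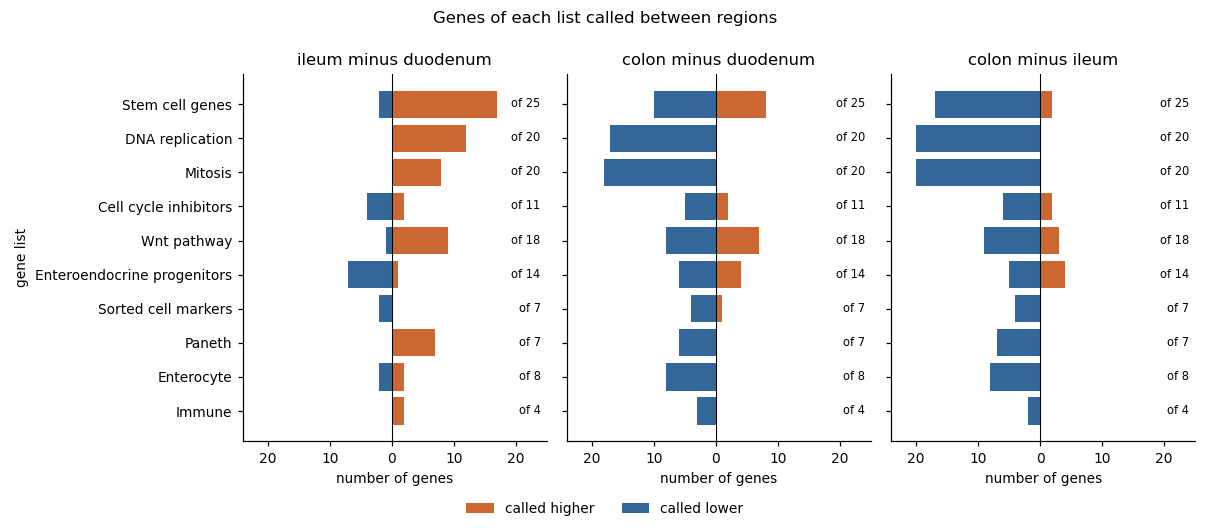
Number of genes called higher (right of 0) or lower (left of 0) in each list for each pair of regions, with the number tested beside the name. The replication and mitosis lists are called lower in colon with none higher, whereas the stem cell list splits into 8 higher and 10 lower for colon against duodenum.

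Of 22 further genes of the Wnt pathway, 18 were tested. Of these, 9 were higher and 1 lower in ileum than in duodenum (17.2% and 16.6% of all genes). The G1 cyclin and Wnt target Ccnd1 was 2.12 higher on the log2 scale, the R-spondin receptor Lgr4 0.64 and the Wnt receptor Fzd5 0.65. In colon 7 were higher and 8 lower than in duodenum (26.8% and 28.3% of all genes), so the list showed no single direction there. Wnt3, the Wnt ligand made by Paneth cells, averaged 37.7 CPM in duodenum, 44.8 CPM in ileum and 2.17 CPM in colon (log2 fold change against duodenum -4.13). The Wnt target Sp5 (-2.57) and the receptor Fzd7 (-0.82) were lower too, while the TCF family genes Tcf7l1 (3.90) and Tcf7l2 (0.73) and the receptor Lgr4 (0.58) were higher.

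Of 11 inhibitors of the cell cycle tested, 2 were higher and 4 lower in ileum than in duodenum, where 17.2% of all genes were higher and 16.6% lower. In colon 2 were higher and 5 lower than in duodenum (26.8% and 28.3% of all genes), and 2 higher and 6 lower than in ileum (23.8% and 25.4%). Cdkn1a, which encodes the CDK inhibitor p21, averaged 247, 105 and 67.5 CPM in duodenum, ileum and colon (log2 fold changes against duodenum -1.25 and -1.88), and Cdkn1c, which encodes p57, differed by -1.88 and -3.08. Cdkn1b, which encodes p27, was higher in colon than in duodenum (0.60). Correlations were also taken across the 48 libraries after removal of the means of the 9 region and surgery groups. There the summed level of the inhibitors correlated negatively with all 9 genes (r from -0.55 for Smoc2 to -0.10 for Ccnb1). This is a description, since the libraries come from 17 mice. Of all tested genes, 12.31%, 14.45% and 34.59% had a lower r than Cdk1, Ascl2 and Ccnb1. For the remaining members this share ran from 0.337% (Smoc2) to 2.84% (Lgr5).

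Markers of other cells also differed between regions. For comparison, 17.2% of all genes were higher and 16.6% lower in ileum than in duodenum. In colon 26.8% were higher and 28.3% lower than in duodenum. All 7 Paneth cell genes were higher in ileum than in duodenum and their sum had medians of 295 CPM in duodenum (129 to 4049), 2557 CPM in ileum (1155 to 12030) and 17.6 CPM in colon (4.499 to 142). Of 8 enterocyte genes, 2 were higher and 2 lower in ileum than in duodenum and all 8 were lower in colon, with summed medians of 6591 CPM (5072 to 42650), 10750 CPM (4087 to 15540) and 449 CPM (277 to 720). Of 6 goblet cell genes, 4 were higher in ileum and 4 higher and 1 lower in colon than in duodenum, with medians of 3464 CPM (2557 to 5948), 3882 CPM (1486 to 9341) and 9231 CPM (2948 to 13810). Colonocyte sums had medians of 72.0, 123 and 1413 CPM and tuft cell sums 22.5, 26.5 and 45.2 CPM. The immune sum, with medians of 123 CPM (21.2 to 1859), 895 CPM (163 to 1341) and 15.1 CPM (2.52 to 362), was mostly Cd74, an antigen presentation gene that averaged 294, 772 and 40.8 CPM. Top2a and Cdk1 were higher where this sum was higher (residual r = 0.55 and 0.54 over 48 libraries, above 97.68% and 97.46% of tested genes). For the other members r ran from -0.003 (Mki67) to 0.334 (Smoc2). CD45-positive cells had been gated out, and Ptprc, which encodes CD45, averaged 2.45, 1.72 and 3.15 CPM. The B cell gene Cd79a and the plasma cell gene Jchain had medians of 0 in all 3 regions. Of 5 stromal genes 1 was tested, Pecam1. The part of these markers in the differences of the 9 genes was not tested.

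Genes of the enteroendocrine lineage differed along the gut as well. Of 14 genes of enteroendocrine progenitors, 1 was higher and 7 lower in ileum than in duodenum (17.2% and 16.6% of all genes), and 4 were higher and 6 lower in colon than in duodenum (26.8% and 28.3%). Neurog3, the factor that commits cells to the lineage, averaged 3.49, 1.28 and 0.716 CPM in duodenum, ileum and colon. The secretory lineage factor Atoh1 was higher in ileum (1.81) and colon (3.42) than in duodenum, and Neurod1 was lower (-0.70 and -1.36). After removal of the group means, Top2a, Cdk1 and Ccnb1 were lower where the progenitor list was higher (r = -0.51, -0.52 and -0.46 over 48 libraries), whereas the corresponding r for Mki67 was -0.04. Of all tested genes, 11.71%, 11.03% and 14.54% had a lower r than Top2a, Cdk1 and Ccnb1. With the summed EEC markers the r of these genes were -0.316, -0.375 and -0.34.

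The surgery groups were compared to ask whether VSG, or the lower body weight that goes with it, changed these genes. By edgeR none of the 9 passed the test in any of 12 contrasts, that is 3 pairs of groups averaged over regions and within each region, or in the test for a surgery effect that differs between regions (p from 0.129 to 0.925). The share of all genes called in the averaged contrasts was 0.0% for VSG against sham ad libitum, 0.245% for VSG against sham weight matched and 0.0529% for sham weight matched against sham ad libitum, it was 0.0% for the interaction, and within single regions it reached at most 0.225%. At an unadjusted p under 0.05 these 3 contrasts held 837, 1500 and 967 genes and the interaction 741. Among the 9 genes, an unadjusted p under 0.05 was seen only for Axin2 and Smoc2 in ileum (sham weight matched against sham ad libitum) and Olfm4 in colon (VSG against sham weight matched), and DESeq2 called 0 of the 9 in all 12 contrasts. The 3 contrasts share their groups, so their values stand side by side and are not independent.

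For VSG against sham ad libitum, averaged over regions, Axin2 had the narrowest interval, at -0.09 on the log2 scale with an interval of -0.28 to 0.11. The intervals were -0.62 to 0.21 for Lgr5, -0.44 to 0.28 for Top2a, -0.61 to 0.60 for Mki67 and -1.16 to 0.14 for Olfm4. This fit treated the libraries of a mouse as independent, although surgery differed only between mice. The mouse means held 59.0% of the residual spread of Axin2 and 74.1% of that of Mki67, where the median gene had 42.7%. The averaged intervals may thus be too narrow. For VSG against sham weight matched the values ran from -0.42 (Olfm4) to 0.51 (Ccnb1, interval -0.33 to 1.34), with a lowest adjusted p of 0.721. For sham weight matched against sham ad libitum they ran from -0.68 (Ccnb1) to -0.05 (Smoc2), with a lowest adjusted p of 0.837.

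In ileum all 9 genes had lower means in sham weight matched than in sham ad libitum mice. Axin2 was at 207, 300.1, 187, 168 and 236 CPM in the sham ad libitum ileum libraries, at 192, 167, 179, 175 and 138 CPM in the sham weight matched ones, and between 136 and 309 CPM (median 154) in the VSG ones. Smoc2 was at 75.8, 133, 59.6, 86.4 and 112 CPM, at 74.6, 52.2, 73.7, 73.0 and 46.7 CPM, and between 45.0 and 138 CPM (median 77.6). The groups overlapped for both genes. The edgeR log2 fold changes of sham weight matched against sham ad libitum were -0.37 for Axin2 (unadjusted p = 0.036, from the fit across all genes) and -0.55 for Smoc2 (unadjusted p = 0.026), and the lowest adjusted p of the 9 was 0.594. Of all genes, 1188 had an unadjusted p under 0.05 and 0.0% were called in this contrast. The median of the 9 was -0.55 and that of all genes -0.003. For VSG against sham weight matched in ileum (0.0463% of genes called) all 9 values were above 0, from 0.11 to 0.37, with a lowest adjusted p of 0.859.

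In the other regions the values scattered around 0. The value farthest from 0 was that of Olfm4 in colon for VSG against sham weight matched (log2 fold change -1.32, interval -2.61 to -0.04, edgeR adjusted p = 1.0), a contrast in which 0.0595% of all genes were called. For sham weight matched against sham ad libitum in colon 0.0132% of all genes were called, and the 9 values ran from -0.73 (Ccnb1) to 0.55 (Lgr5). Olfm4 in colon was at 10.1, 2.74, 1.34, 17.3 and 2.52 CPM in sham weight matched mice, between 0.436 and 7.28 CPM (median 1.87) in VSG mice, and at 2.44, 0.857, 3.09, 1.73 and 21.98 CPM in sham ad libitum mice. The highest library of each sham group, at 17.3 and 21.98 CPM, lay above all VSG libraries, and the groups overlapped. Of the genes in all supporting lists, 4 passed in a surgery contrast. They were the enterocyte gene Sis (-0.66, adjusted p = 0.0153, VSG against sham weight matched averaged over regions) and, in duodenum, Fabp2, Itln1 and Defa17 (-2.37, -2.40 and -2.67). The sham weight matched duodenum group includes the library of mouse 27, without which these 3 were no longer called (-0.89, -1.31 and -2.07, adjusted p = 1, 1 and 0.449), while Sis was (-0.60, adjusted p = 0.0307).

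**Figure D4:**
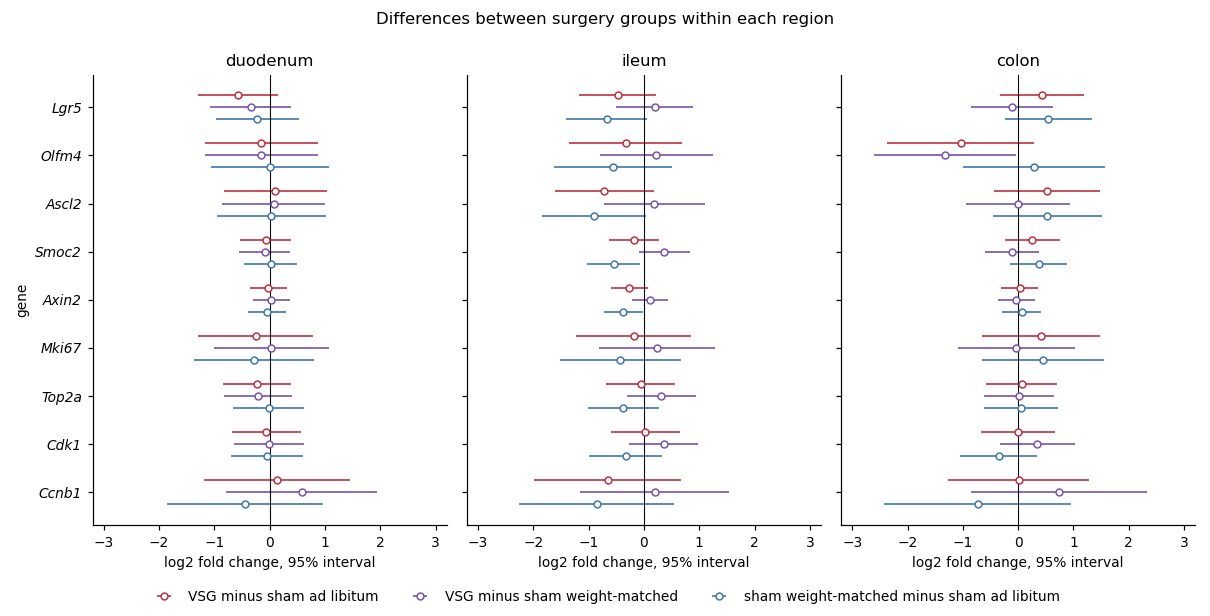
Log2 fold changes between surgery groups within each region with 95% intervals from edgeR; open symbols did not pass an adjusted p of 0.05. Every symbol is open, and for sham weight matched against sham ad libitum all 9 ileum values lie below 0.

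The share of the spread that lay between mice differed among the genes. After removal of the group means, the mouse means held 74.1% of the spread of Mki67 over libraries. This was more than for 97.8% of the genes tested, whose median was 42.7% (quartiles 34.1% and 52.4%). Such a share is well above 0 even where mice do not differ, because each mouse gave at most 3 libraries. A share near the lower quartile or below it does not by itself show a mouse effect. The shares were 59.0% for Axin2, 49.97% for Cdk1, 47.2% for Top2a and 41.8% for Lgr5. Smoc2 (34.3%), Ascl2 (30.7%), Ccnb1 (30.3%) and Olfm4 (19.7%) lay below the median of all genes, as Lgr5 did. Of the 15 mice with all 3 regions, 5 lay above their group means of Mki67 in every region and 5 below in every region, whereas for Top2a 3 lay above, 3 below and 9 were mixed. The replicate libraries of a mouse share the animal and its processing, and these cannot be told apart.

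The ratio of Mki67 to Top2a was close across regions in some mice and not in others. VSG mouse 28 had ratios of 0.577, 0.529 and 0.602 in duodenum, ileum and colon, and VSG mouse 18 had 1.99, 1.67 and 2.57. Sham weight matched mouse 16 had 1.47, 1.55 and 3.33, and mouse 27 of that group 0.544, 0.605 and 0.912. The residual of Mki67 correlated with that of Cenpf at r = 0.91, of Smc4 at 0.85 and of Cenpe at 0.84 over the 48 libraries, and with Top2a at 0.57, Cdk1 at 0.22 and Ccnb1 at 0.21. The longest transcript of Mki67 has 10061 bases, longer than 97.6% of tested genes, that of Cenpf 11130 and that of Cenpe 7910, but that of Smc4 4316. Mki67 also correlated with log2 effective library size (r = 0.48, above 97.6% of tested genes), as did Axin2 (0.439, above 96.15%). The other members ran from -0.231 (Ccnb1) to 0.226 (Lgr5), with 0.19 for Top2a and -0.06 for Cdk1. Each library's correlation of residuals with transcript length was also set against the members. There r was 0.38 for Mki67, 0.519 for Axin2, 0.402 for Lgr5, -0.485 for Cdk1 and -0.447 for Ccnb1. The remaining members lay between -0.19 (Olfm4) and 0.035 (Smoc2). The part of library size and of transcript length in the values of Mki67 and the other members was not tested.

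**Figure D5:**
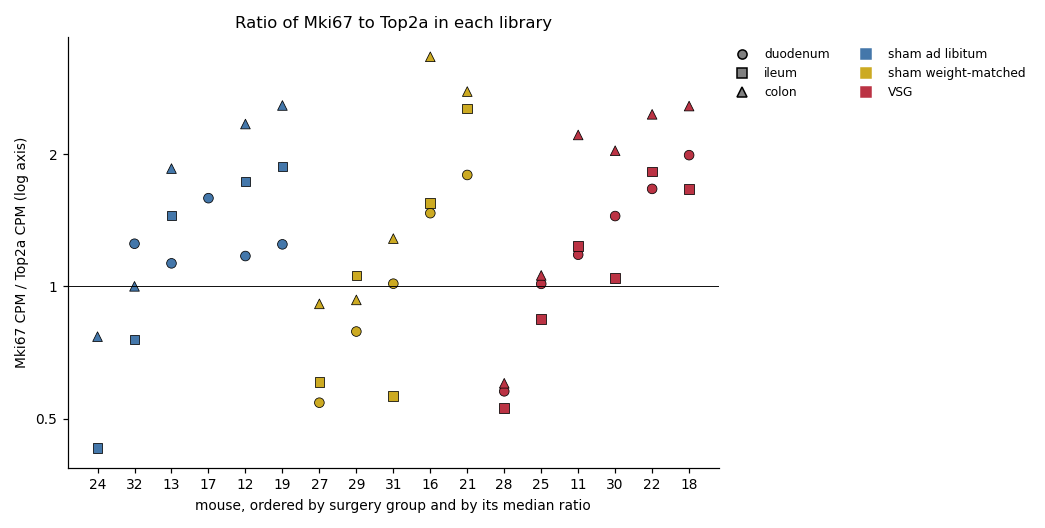
Ratio of Mki67 to Top2a CPM in each library, by mouse, with the marker giving the region and the colour the surgery group. Mouse 28 lies at 0.529 to 0.602 in all 3 regions, while mouse 16 runs from 1.47 to 3.33.

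Within groups the 9 genes formed no single block. Residual correlations over the 48 libraries ran from 0.04 to 0.64 among the 5 stem cell and Wnt genes (10 pairs, median 0.39), highest for Lgr5 with Axin2 and with Smoc2 (0.61), and from 0.21 to 0.75 among the 4 proliferation genes (6 pairs, median 0.57), highest for Top2a with Cdk1. Across the 2 kinds the 20 pairs had a median of 0.24 and ran from -0.16 (Axin2 with Ccnb1) to 0.56 (Axin2 with Mki67). Olfm4 had its highest r with Top2a (0.52), and with Lgr5, Axin2 and Ascl2 it had 0.34, 0.13 and 0.04. These r values describe libraries of 17 mice that share animals and depth.

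The genes most like each member over the 48 libraries, by residual correlation, were Ephb3 for Lgr5 (0.74), Dtl for Olfm4 (0.74), Ints5 for Ascl2 (0.62), Rcc2 for Smoc2 (0.76), Tns3 for Axin2 (0.775), Lmnb1 for Top2a (0.88), Aurkb for Cdk1 (0.83) and Mtbp for Ccnb1 (0.69). Averaged over the 5 stem cell and Wnt genes, the highest r were those of Slc12a2 (0.57), Sox9 (0.57), Pitrm1 (0.55), Trp53 (0.55) and Myc (0.55). Over the 4 proliferation genes they were those of Lmnb1 (0.67), Melk (0.66), Mthfd1 (0.64), Prc1 (0.64) and Aurkb (0.63). The summed mitosis list, which holds none of the 9, correlated at 0.92 with Top2a, 0.73 with Cdk1, 0.60 with Mki67, 0.59 with Olfm4 and 0.58 with Ccnb1.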

How the data were processed

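RNA from sorted cells (2 ng per library) was converted with a SMARTer stranded total RNA pico v2 kit and read as single ends of 50 bases. Per the submitters' processing notes, reads were aligned with STAR 2.5.1 to GRCm38, and the authors generated the deposited raw counts per Ensembl gene with STAR as well. Whether strand was used in counting is not given in the sources used here. Gene symbols and positions came from GENCODE M21 (53274 of 53465 IDs matched). The deposited counts were fitted with edgeR 4.0.16 (R 4.3.3) using TMM scaling, filterByExpr, 1 mean for each of the 9 region and surgery groups over all 48 libraries (common biological coefficient of variation 0.302), the quasi-likelihood F test and Benjamini-Hochberg adjustment over 15126 genes at 0.05. Levels (CPM) are counts scaled to a common effective library size, with SD over libraries. A fold change is an edgeR estimate with its small prior count. Self-tests on simulated counts were run.

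The 9 genes and the supporting lists were chosen with earlier results of these data known. The rule named all 9 members; for every list and pair of regions, the genes of lowest p past the threshold, at most 3 higher and 3 lower; list genes past the threshold in surgery contrasts; and the genes of highest residual correlation. Region contrasts compare libraries of the same mice, so the mouse number pairs them by design. Deviations from the group means of the 46 within-mouse pairs correlated at a median of 0.11 (-0.0704 to 0.391; over 0.1 in 25) over the 2000 most variable genes. The fit without a block was the main one, and blocks with the mouse as a fixed effect (edgeR) or random effect (limma 3.58.1, voom, within-mouse correlation 0.128) were alternatives. Other alternatives were DESeq2 1.42.0, its size factors in edgeR, no or a stricter count filter, the first library index as covariate, only the libraries compared, counts summed per mouse, and leaving out each mouse, the libraries of mouse 12 or that of mouse 27. No 2 libraries of a group differed by less than sampling noise. Nothing says whether the libraries of a mouse were processed on separate days, and p-values measure the spread between mice and libraries together.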

Additional observations from a re-analysis of the deposited data

Results flagged for a closer look

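In 7 of 81 sets of 5 or 6 libraries (1 gene in 1 region and surgery group) the highest or lowest library lay farther from the rest than Dixon's 95% limit allows, and chance gives about 1 in 20. In duodenum, Lgr5 was at 18.1 CPM in sham weight matched mouse 16 against 12.4 to 13.2 CPM in the others of its group, and Cdk1 at 20.7 CPM in sham ad libitum mouse 13 against 10.46 to 13.3 CPM. In ileum, Ccnb1 was at 8.13 CPM in sham ad libitum mouse 19 against 1.77 to 3.53 CPM, and at 1.11 CPM in VSG mouse 18 against 2.65 to 3.17 CPM. In colon, Smoc2 was at 24.8 CPM in VSG mouse 22 against 13.4 to 15.03 CPM. The colon library of sham ad libitum mouse 32 was high for both Olfm4, at 21.98 CPM against 0.857 to 3.09 CPM, and Ccnb1, at 3.40 CPM against 0 to 0.768 CPM.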

How the results depend on the processing

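Colon values kept their direction under every alternative run except Ascl2 against duodenum, at -0.08 with the first library index as a covariate. Members called for ileum against duodenum numbered 6, and 2 with that covariate, under which Top2a (-0.127), Cdk1 (-0.034) and Ccnb1 (-0.242) changed sign. With the mouse as a replicate block in edgeR 8 were called, Mki67 and Top2a being added, and with the limma block or DESeq2 7. Top2a was also called with DESeq2 size factors, a stricter filter, without the duodenum library of mouse 27 (adjusted p = 0.0152) and without each of mice 13, 18, 27, 28 and 30. Cdk1 was lost with no filter on low counts and without mouse 11 or 29. Leaving out each mouse gave 5 to 7 called for ileum against duodenum, 6 to 7 for colon against duodenum, 9 for colon against ileum and 0 for each surgery contrast. The replicate block changed no other call. Surgery values near 0 changed sign without ever passing the test. With the index covariate, VSG against sham ad libitum was 0.004 for Ascl2, 0.029 for Top2a, 0.066 for Cdk1 and 0.015 for Ccnb1, and Olfm4 was 0.006 for sham weight matched against sham ad libitum. Without the ileum and colon libraries of mouse 12, VSG against sham ad libitum was 0.049 for Ascl2 and 0.097 for Mki67, and Mki67 was 0.016 for the sham groups. The stricter filter gave 0 for Smoc2. Summing counts per mouse gave 0.077 for Cdk1 (VSG against sham ad libitum) and 0.062 for Olfm4 (VSG against sham weight matched). The limma replicate block gave -0.005 for Top2a and -0.014 for Ccnb1 (VSG against sham weight matched) and 0.134 for Olfm4 (sham groups). Leaving out each mouse, VSG against sham ad libitum ran from -0.183 to 0.102 for Ascl2, -0.099 to 0.077 for Smoc2, -0.17 to 0.004 for Axin2, -0.206 to 0.132 for Mki67, -0.179 to 0.049 for Top2a, -0.102 to 0.127 for Cdk1 and -0.474 to 0.311 for Ccnb1. For VSG against sham weight matched the ranges were -0.228 to 0.036 for Lgr5, -0.079 to 0.324 for Ascl2, -0.047 to 0.107 for Smoc2, -0.06 to 0.094 for Axin2, -0.119 to 0.342 for Mki67 and -0.074 to 0.159 for Top2a. For sham weight matched against sham ad libitum they were -0.2 to 0.046 for Lgr5, -0.305 to 0.376 for Olfm4, -0.361 to 0.042 for Ascl2, -0.101 to 0.026 for Smoc2 and -0.349 to 0.1 for Mki67. The cause of these changes was not tested. Ccnb1 in colon, with 69 counts, and Olfm4 in colon, with 489, are limited by depth.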
